A study of Mus musculus with 4 samples.

Results

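The thin filament genes described here were the actins Acta1 and Actc1, the tropomyosins Tpm1, Tpm2 and Tpm3, and the troponins Tnnt1, Tnnt3, Tnni2 and Tnnc2. They were taken as a fixed list of 9 genes, out of 7740 genes with a peak in either library. Every peak that overlapped the RefSeq span of a listed gene on its own strand was used, with every miRNA found in it. The data came from chimeric eCLIP-seq, in which Ago2, the protein that carries miRNAs, is fixed to RNA by ultraviolet light and pulled down, and its miRNA is joined end to end with the target fragment, so that a chimeric read names both. Each value is an estimated count of the chimeric reads that pair 1 miRNA with 1 peak. The MOV control library came from the left plantaris muscle, injected with a scramble-control lentivirus, and the MOV mimic library from the right plantaris, injected with a miR-1 mimic lentivirus. Both viruses used a mouse CMV promoter and a TurboGFP reporter, and not every fibre was infected. The mice were C57BL/6J males of 5 months, and all muscles had 10 days of mechanical overload (MOV), a surgery that removes part of the synergist muscles of the plantaris. There was 1 library per group, so no test between the groups was possible and no p-value is given. Differences describe these 2 libraries, and all intervals are 95% intervals for counting error only.

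The thin filament is the actin cable of the sarcomere. Tropomyosin lies along it and blocks the sites where myosin binds, and the troponin complex moves tropomyosin aside when calcium binds to troponin C, with troponin I as the inhibitory subunit and troponin T as the anchor to tropomyosin. Fast and slow fibres use different genes for most of these subunits. A miRNA usually recognises its target through the seed, the bases near its 5′ end, and miR-1 and miR-133 are miRNAs largely restricted to striated muscle.

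The miRNAs that led the reads on these genes and have a mature sequence in the RefSeq table for GRCm38.p6 are printed here 5′ to 3′, with the seed (bases 2 to 8) in capitals, because the genes differed in which of them they carried. miR-206-3p was found mainly on Tpm2 and Acta1, miR-133b-3p on all 9 genes in the mimic library, let-7a-5p, miR-27a-3p and miR-29a-3p mainly on Acta1, miR-30e-5p mainly on Actc1, and miR-23a-3p most often on Tnnc2. All 9 let-7 names found on the genes shared the seed of let-7a-5p. Of 259 miRNA names found on the genes, 226 had a sequence. Further leading names were miR-133a-3p, miR-1a-3p, miR-378a-3p, miR-486b-5p and miR-145a-5p.
miR-206-3p: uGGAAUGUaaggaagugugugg
miR-133b-3p: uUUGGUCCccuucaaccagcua
let-7a-5p: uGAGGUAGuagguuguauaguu
miR-27a-3p: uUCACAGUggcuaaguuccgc
miR-29a-3p: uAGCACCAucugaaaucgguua
miR-30e-5p: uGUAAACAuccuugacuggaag
miR-23a-3p: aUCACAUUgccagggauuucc

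The complement of each seed was looked for in the protein-coding transcripts of GENCODE vM1, an annotation of the mm9 build. The positions are therefore in transcripts and were not placed against the peaks, whose build is GRCm38. The letters ACATTCC, which pair with bases 2 to 8 of miR-206-3p, were present in transcripts of 17.7% of 22611 genes and of 2 of the 9 thin filament genes, Tpm2 and Tpm3. GGACCAA, for miR-133b-3p, was present in 18.7% of all genes and in Tpm2 and Tnnc2. TGTTTAC, for miR-30e-5p, was present in 17.5% of all genes and in Actc1 and Tpm2. CTACCTC, for let-7a-5p, was present in 20.03% of all genes and in Actc1, Tpm2 and Tnnc2. ACTGTGA, for miR-27a-3p, was present in 29.1% of all genes and in Tpm3, TGGTGCT, for miR-29a-3p, in 28.4% and in Tpm1, and AATGTGA, for miR-23a-3p, in 23.6% and in Tpm3. Acta1 held none of these 7 words of 7 bases. With 6 bases (2 to 7), Acta1 held TACCTC of let-7a-5p, which 41.9% of all genes held, and GGTGCT of miR-29a-3p, which 55.1% held. Tnnc2 held ATGTGA of miR-23a-3p, which 52.1% of all genes held. Only the sense strand of the transcripts was searched, and a 7-base word contains its 6-base word. Tnnt3 held GACCAA of miR-133b-3p, which 48.02% of all genes held, and Tpm2, Tpm3 and Tnnc2 held it too. Acta1, Actc1, Tpm1, Tnnt1 and Tnni2 did not, although miR-133b-3p had reads on each of them. Acta1 also lacked CTGTGA of miR-27a-3p, which 68.0% of all genes held, and CATTCC of miR-206-3p, which 47.0% held, although both miRNAs had reads on it. A selection of the matches, chosen with the reads known, is printed with the matching letters in capitals. Among the pairs shown, Tnnc2 with miR-133b-3p had the fewest reads, 12.6 control and 10.8 mimic reads.
Tpm2, 3′ untranslated, miR-206-3p: agtgtctcctaACATTCCtaacatggt
Tpm2, coding, miR-133b-3p: cttcgaaccatGGACCAAgccctcaag
Tnnc2, coding, miR-133b-3p: gcaaccatgacGGACCAAcaggctgag
Tnnc2, coding, miR-23a-3p: cttctggggagcATGTGAcagaagagg
Actc1, 3′ untranslated, miR-30e-5p: attgtacagttTGTTTACacaagtgca
Acta1, 3′ untranslated, let-7a-5p: attgactcgtttTACCTCattttgtta
Acta1, coding, miR-29a-3p: ggctatccaggcGGTGCTgtccctcta
Tnnt3, coding, miR-133b-3p: aggagccgcattGACCAAgcccagaag

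The control library held 232408 chimeric reads in 20754 peaks and the mimic library 259207 in 21872, so the mimic library had 1.12 times the reads of the control. Skeletal fibre genes were abundant, with titin (Ttn), present in all striated fibres, at 17514 reads in the control against 23569 in the mimic. The fast myosins Myh4, at 5140 and 4015, and Myh1, at 6379.6 and 11358.5, went opposite ways. The summed reads of the 6 skeletal fibre markers had a ratio of mimic to control of 1.32. The 4 heart markers (Myh6, Nppa, Tnni3, Mybpc3) had no reads in either library. The 3 immature fibre markers summed to 534.2 reads in the control against 322.1 in the mimic, and 4 smooth muscle markers to 112.0 and 141.9, with Cnn1 at 0 in both. The 4 fibroblast markers summed to 4045 and 4015, the 3 immune markers to 32.1 and 36.9, and the 2 endothelial markers to 11.03 and 35.2, with Pecam1 at 0 in the control. A chimeric read count holds the amount of the mRNA, the amount of the miRNA and the binding together, and these cannot be told apart here, nor can fewer cells of a type and less RNA per cell.

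The 9 genes held 70 peaks in each library. Their peaks carried 5519 reads in the control against 6502 in the mimic, which was 2.37% (interval 2.31 to 2.44) and 2.51% (2.45 to 2.57) of all chimeric reads. The ratio of mimic to control reads was 1.18 (1.14 to 1.22), and 1.06 after each library was divided by its total. A peak on these genes listed 21.8 miRNAs on average in the control against 23.4 in the mimic, against 4.44 and 4.55 for all other peaks. The peaks were not matched for reads, which in the control were 5519 in 70 peaks here and 232408 in 20754 peaks of the whole library. Most of the miRNA entries on these genes were small. In the control 62.8% of the 1529 entries, a peak with 1 miRNA each, were under 1 read and in the mimic 61.9% of 1637 were, while the 102 and 117 entries of at least 10 reads carried 71.8% and 75.4% of the reads. No entry lay on the opposite strand of a gene. With each peak given to its gene of largest overlap, none went to a different gene.

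**Figure D1:**
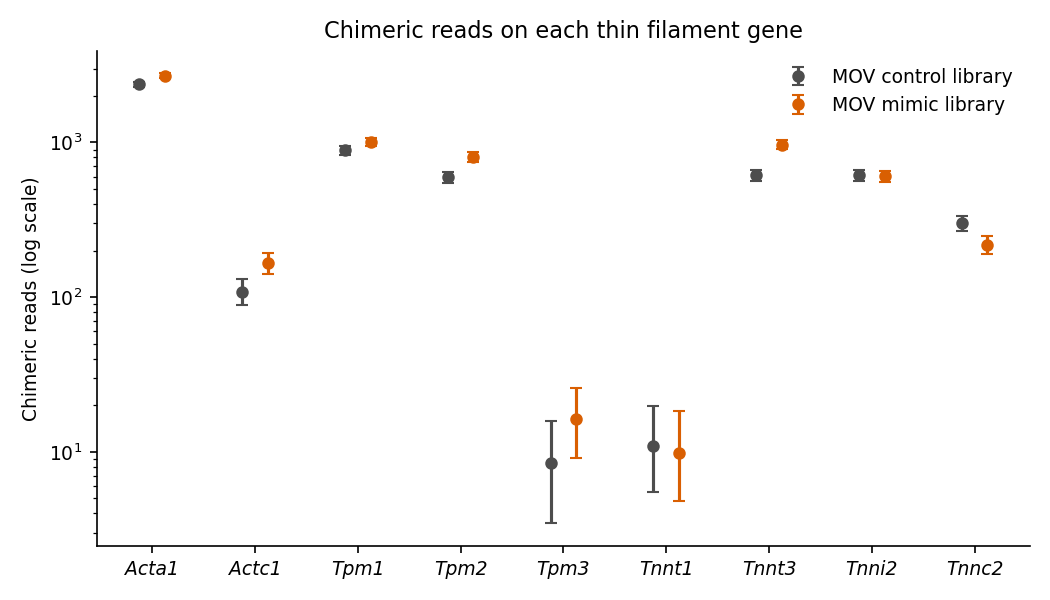
Chimeric reads on each of the 9 genes (log axis) in the MOV control library (grey) and the MOV mimic library (orange), with exact Poisson 95% intervals for counting error. Acta1 lies highest in both libraries, Tpm3 and Tnnt1 lie below 20, and the intervals of the 2 libraries lie apart for Acta1, Actc1, Tpm2, Tnnt3 and Tnnc2.

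Acta1 encodes skeletal α-actin, the actin of adult skeletal muscle. It lies at chr8:123891758-123894775 on the minus strand in GRCm38. It had 2377 control and 2699 mimic reads and ranked 6th of all genes by reads summed over both libraries. The ratio was 1.14 (1.07 to 1.2), close to that of the library totals. Acta1 held 43.1% and 41.5% of the reads of the 9 genes.

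The reads on Acta1 were spread over many miRNAs, 161 in the control against 153 in the mimic. The 9 let-7 names together held 30.1% of its reads in the control against 30.6% in the mimic, where the median over 166 genes with at least 100 reads in each library was 3.0%. miR-133 (miR-133a-3p and miR-133b-3p) held 20.8% and 24.8%, miR-27 (miR-27a-3p and miR-27b-3p) 10.5% and 6.7%, and miR-29 (a, b and c) 6.0% and 8.4%.

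The peaks of both libraries on Acta1 merged into 8 regions. The largest, chr8:123892833-123892945, had 894 reads of 80 miRNAs in the control against 1025 reads of 81 miRNAs in the mimic, and no single miRNA held a large part of it. Its leading miRNA was miR-206-3p in the control, with 111.2 reads against 82.4 in the mimic, and miR-133a-3p in the mimic, with 143.9 reads against 84.9 in the control. The next region toward the 3′ end, chr8:123892656-123892735, was led by miR-27a-3p with 166.9 reads in the control against 119.6 in the mimic. The following one, chr8:123892358-123892404, was led by miR-133a-3p with 158.3 and 99.8. The region nearest the 3′ end of the span, chr8:123891811-123891872, was led by let-7f-5p with 61.4 reads in the control against 101.3 in the mimic. The let-7 match printed above lies 82 bases before the end of the GENCODE transcript and that region 53 bases before the end of the RefSeq span, ends that were not aligned with each other.

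The regions of Acta1 did not move together. Chr8:123893151-123893249 had 325.3 control and 555.0 mimic reads, a ratio of 1.71 (1.49 to 1.96), while chr8:123892358-123892404 had 219.5 and 136.1, a ratio of 0.62 (0.5 to 0.77). Even for miR-133a-3p alone the regions went opposite ways. Its reads in the first of these were 38.1 in the control against 118.9 in the mimic, a ratio of 3.12 (2.16 to 4.64), against 0.63 (0.49 to 0.82) in the second. miR-133b-3p in the first region had 15.6 control and 79.0 mimic reads, a ratio of 5.07 (2.86 to 9.06), the largest among the 88 sites of the 9 genes with at least 10 reads in both libraries. A site here is a merged region with 1 miRNA. Acta1 shared 4.23% of the 30-base words of its longest transcript with other genes, mostly with Actb, and how reads of such stretches were placed is not given in the sources used here.

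Actc1 encodes cardiac α-actin, which is also the main sarcomeric actin of fetal skeletal muscle. It lies at chr2:114047282-114052875 on the minus strand. It had 108.1 control and 166.5 mimic reads, a ratio of 1.54 (1.2 to 1.98). Part of the difference lay in 2 regions that had a peak in the mimic library only. In the 3 regions found in both, the values were 108.1 and 142.1 and the ratio 1.31 (1.02 to 1.70), each of the 3 being higher in the mimic.

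miR-30 was the leading family on Actc1, with 56.2% of the reads in the control against 46.7% in the mimic. That was the 2nd highest miR-30 share among the 166 genes, whose median was 0.7%. The TGTTTAC word printed above lies 76 bases before the end of the GENCODE transcript, an end not aligned with that of the RefSeq span. The miR-30 reads lay in the region nearest the 3′ end, chr2:114047306-114047431, 24 bases before the end of the span. miR-30e-5p had 20.2 reads there in the control against 28.7 in the mimic, miR-30a-5p 14.0 and 14.6, miR-30d-5p 12.7 and 13.8, and miR-30c-5p 11.9 and 11.8. Reads under these 4 family names thus lay in the same region in both libraries. The counts are mostly fractions of unstated origin, so the 4 values may not be independent of each other. A further member, miR-30b-5p, had 8.79 reads on Actc1 in the mimic. All miR-30 names together had 60.8 control and 77.7 mimic reads on the gene. miR-133a-3p led a second region, chr2:114049522-114049605, with 15.9 and 10.8 reads. miR-1a-3p on Actc1 had 0.58 control and 9.26 mimic reads, and miR-206-3p 0.57 and 7.89. Both control values are below the 3 reads taken as the detection limit, so no fold is given. The immature fibre markers summed to fewer reads in the mimic, while Actc1 had more, and their part in the result was not tested.

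**Figure D2:**
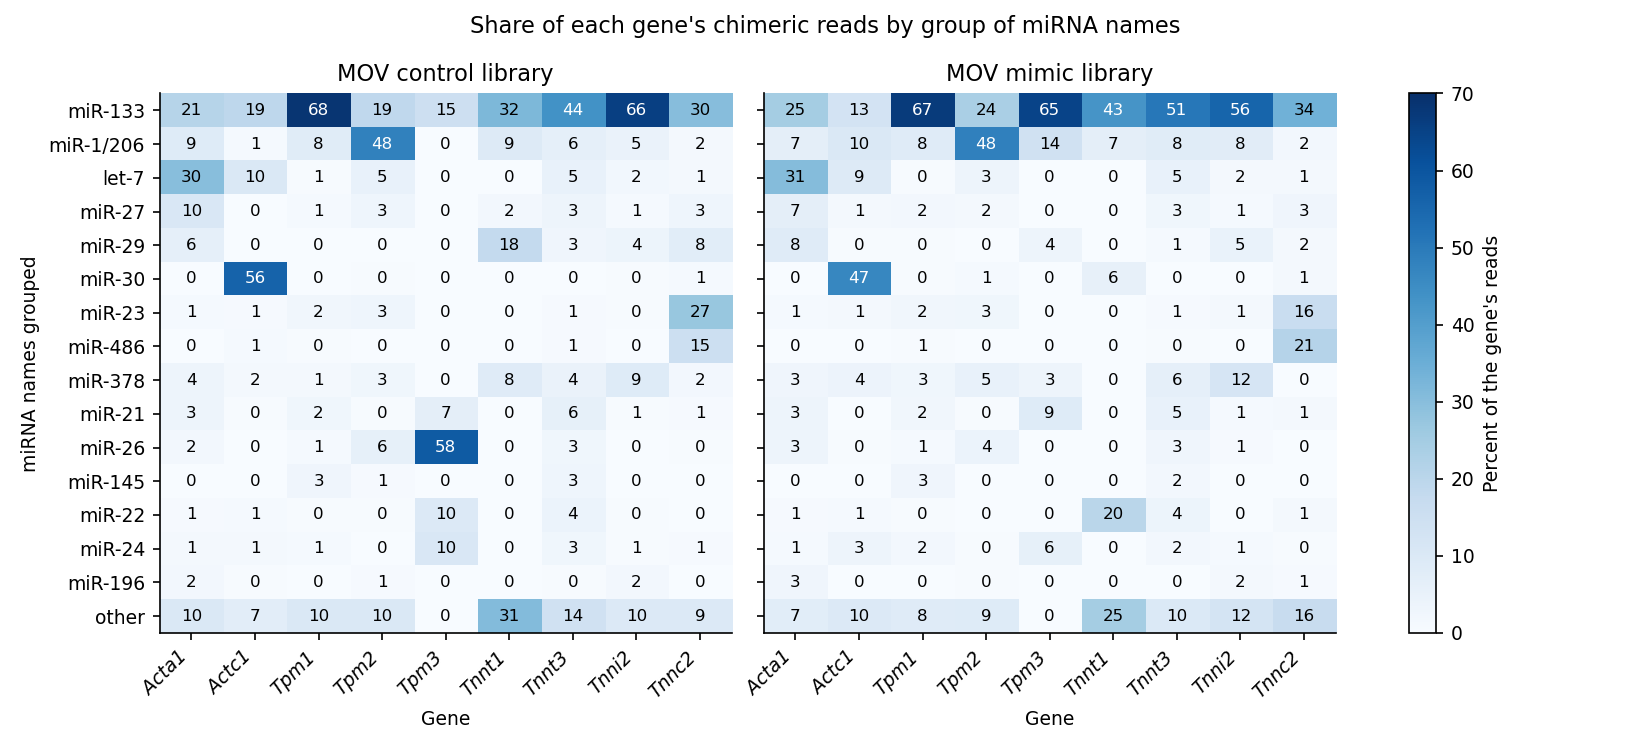
Percent of each gene's chimeric reads (columns) carried by groups of miRNA names (rows) in the MOV control library (left) and the MOV mimic library (right), with the rounded percent written in each cell. miR-133 leads Tpm1, Tnnt3, Tnni2 and Tnnc2, let-7 leads Acta1, miR-30 leads Actc1 and miR-1a-3p with miR-206-3p leads Tpm2 in both libraries, while Tpm3 and Tnnt1 rest on fewer than 20 reads in each library.

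Tpm1 encodes α-tropomyosin, the form of fast fibres, and also makes smooth muscle and cytoskeletal isoforms. It lies at chr9:67022590-67049672 on the minus strand. It had 890.7 control and 1012 mimic reads, a ratio of 1.14 (1.04 to 1.24), close to the ratio of the library totals. Its reads fell into 14 regions, of which 11 had a peak in both libraries and held 99.0% and 99.7% of its reads.

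miR-133 held 68.4% of the Tpm1 reads in the control against 66.8% in the mimic, the largest miR-133 share among the members with over 100 reads and the 13th of the 166 genes, whose median was 20.9%. miR-133a-3p alone had 476.9 and 546.0 reads, in all 14 regions. Its highest site, at chr9:67031028-67031100, had 153 control and 154.5 mimic reads, a ratio of 1.01 (0.80 to 1.27). The next, at chr9:67033874-67033984, had 126.2 and 114.9, a ratio of 0.91 (0.70 to 1.18). A further site, at chr9:67029663-67029743, differed from these with 48.7 control and 116.1 mimic reads, a ratio of 2.39 (1.68 to 3.38). GGACCAA was not among the letters of the GENCODE transcripts of Tpm1.

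miR-1a-3p on Tpm1 had 50.2 control and 63.5 mimic reads, a ratio of 1.26 (0.86 to 1.86). miR-145a-5p, a miRNA abundant in smooth muscle, had 26.3 control and 28.7 mimic reads. By the mean of both libraries, the miR-145 share of Tpm1 was the highest of the 166 genes, at 3.0% for the control and 2.8% for the mimic. Tnnt3 was 3rd, with a higher control share than Tpm1, 3.1%, against 1.7% for the mimic. The smooth muscle markers Acta2 (93.4 and 113.6 reads), Myh11 (9.23 and 20.2) and Tagln (9.41 and 8.07) were present in both libraries, and Cnn1 in neither. Their part in the result was not tested.

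Tpm2 encodes β-tropomyosin, found in slow and fast fibres. It lies at chr4:43513726-43523583 on the minus strand. It had 596.9 control and 805.0 mimic reads, a ratio of 1.35 (1.21 to 1.5). Without its largest region the ratio was 1.08, so that region held most of the difference.

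Tpm2 had the largest share of the overexpressed miRNA and its seed relative among the members with over 100 reads. miR-1a-3p and miR-206-3p together held 48.1% of its reads in the control against 48.2% in the mimic, 17th of the 166 genes, whose median was 11.6%. miR-1a-3p had 207.4 reads on Tpm2 in the control against 305.5 in the mimic, which made it 9th of 3812 genes by miR-1a-3p reads and gave it 56.0% and 56.2% of the miR-1a-3p reads of the 9 genes. The main site lay at chr4:43514887-43515057 and had 163.9 miR-1a-3p reads in the control against 267 in the mimic, a ratio of 1.63 (1.34 to 1.99). miR-206-3p at the same place had 42.4 and 64.5 reads, a ratio of 1.52 (1.02 to 2.31). At chr4:43515836-43515923 the same miRNA instead had 32.2 control and 10.7 mimic reads, a ratio of 0.33 (0.16 to 0.70), the lowest of the 88 sites. miR-1a-3p led that region with 38.2 and 33.4 reads. The miR-206-3p match of Tpm2 printed above lies 245 bases before the end of the GENCODE transcript. The main site lies 1161 bases before the end of the RefSeq span, and these ends were not aligned either.

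The tropomyosin Tpm2 also carried miR-133a-3p, with 83.1 control and 153.4 mimic reads, a ratio of 1.85 (1.40 to 2.44). Its highest miR-133a-3p site, chr4:43518644-43518720, had 57.2 and 81.0 reads, and chr4:43519227-43519289 had 14.9 and 38.2, a ratio of 2.57 (1.36 to 4.96).

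Tpm3 encodes the tropomyosin of slow fibres and a set of cytoskeletal forms. It lies at chr3:90072651-90100902 on the plus strand. It had 8.42 control and 16.2 mimic reads, a ratio of 1.92 whose interval ran from 0.81 to 5.4. The largest entry in the control was miR-26a-5p with 4.92 reads in a region that had no peak in the mimic. Of its 6 regions 3 were found in both libraries, and in these it had 3.37 reads in the control against 14.1 in the mimic, a ratio of 4.18 (1.30 to 25.3). In the longest transcript of Tpm3, 70.8% of the 30-base words also occurred in other genes, all of them in Tpm3-rs7, so its reads are uncertain.

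Tnnt1 encodes slow skeletal troponin T. It lies at chr7:4504569-4515975 on the minus strand and had 10.9 control and 9.75 mimic reads, a ratio of 0.89 (0.35 to 2.36). Its 6 regions had at most 3.48 reads each, and 2 were found in both libraries. Of the 5 slow fibre markers, Myh7 was the highest, with 92.6 control and 80.7 mimic reads. The other 4, Tnni1, Tnnc1, Myl2 and Myl3, had from 9.13 to 36.3 reads per library, each with more in the mimic before division by the totals. The ratios were 1.21 (0.69 to 2.06) for Tnni1 and 1.15 (0.41 to 3.09) for Tnnc1. They were 2.29 (1.22 to 4.34) for Myl2 and 2.04 (1.01 to 4.55) for Myl3. Only the Myl2 interval lay above the ratio of the library totals, 1.12.

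Tnnt3 encodes fast skeletal troponin T. It lies at chr7:142498771-142516213 on the plus strand. It had 614.8 control and 968.7 mimic reads, a ratio of 1.58 (1.42 to 1.75), the highest of the members with over 100 reads. All 8 of its regions had a peak in both libraries, and 7 were higher in the mimic, also after division by the library totals.

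The difference on Tnnt3 was found with several miRNAs. miR-133a-3p had 189.2 control and 340.3 mimic reads, a ratio of 1.80 (1.5 to 2.16). miR-133b-3p followed with 78.8 and 149.8 and 1.90 (1.44 to 2.53). miR-378a-3p had 21.7 and 50.7, a ratio of 2.34 (1.38 to 4.01), and miR-1a-3p 32.2 and 66.1, a ratio of 2.05 (1.33 to 3.25). For miR-21a-5p, a miRNA widely expressed outside muscle, the values were 36.8 and 51.1 and the ratio 1.39 (0.89 to 2.16). The highest site was miR-133a-3p at chr7:142512294-142512365, with 77.2 reads in the control against 138.7 in the mimic. The second, also miR-133a-3p, at chr7:142514324-142514366, had 58.7 and 136.5, a ratio of 2.33 (1.69 to 3.18). A single region went the other way. Chr7:142512097-142512149, led by miR-22-3p, had 83.2 control and 67.0 mimic reads, a ratio of 0.80 (0.58 to 1.13).

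Tnni2 encodes fast skeletal troponin I, the inhibitory subunit. It lies at chr7:142441816-142444410 on the plus strand, upstream of Tnnt3. It had 612.9 control and 606.5 mimic reads, a ratio of 0.99 (0.88 to 1.11). A single region, chr7:142443898-142444081, held 76.5% of its reads in the control against 69.9% in the mimic.

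miR-133 held 65.8% of the Tnni2 reads in the control against 55.5% in the mimic. miR-133a-3p in the main region had 317.6 reads in the control, the highest value of any site of the 9 genes, against 242.5 for the mimic, a ratio of 0.76 (0.64 to 0.90). In the same region miR-378a-3p had 43.8 and 60.2 reads, a ratio of 1.38 (0.91 to 2.06). There miR-133b-3p had 40.1 and 42.4, a ratio of 1.06 (0.66 to 1.66). The region nearest the 5′ end, chr7:142443357-142443429, was led by miR-206-3p with 18.8 and 26.6 reads. Tnni2 without its main region had a ratio of 1.27, so its regions also differed in direction.

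Tnnc2 encodes fast skeletal troponin C, the calcium sensor. It lies at chr2:164777161-164779734 on the minus strand. It had 299.3 control and 218.5 mimic reads, a ratio of 0.73 (0.61 to 0.87), the lowest of the 9 genes. Of its 5 regions, 2 had a peak in the control only, with 31.7 reads led by miR-133a-3p (17.6) and 29.5 reads led by miR-29a-3p (8.81). In the 3 regions found in both libraries the values were 238.1 and 218.5 and the ratio 0.92 (0.76 to 1.11), or 0.82 after division by the library totals.

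miR-133a-3p led the reads on Tnnc2, with 77.6 in the control against 63.5 in the mimic, and it also led the other troponins. The rest of the Tnnc2 mix differed from theirs. miR-486b-5p, a miRNA rich in muscle, had 45.8 control and 46.2 mimic reads, and its share of 15.3% and 21.2% was the highest of the 166 genes, with a median of 0.1%. miR-23 (miR-23a-3p and miR-23b-3p) held 27.2% and 16.2%, 4th of the 166 genes. miR-23a-3p in the main region, chr2:164777493-164777590, had 47.4 control and 23.3 mimic reads, a ratio of 0.49 (0.28 to 0.82). miR-23b-3p there had 33.7 and 12.02, a ratio of 0.36 (0.17 to 0.70). miR-486b-5p in that region had 45.6 and 46.1 reads, so within 1 region miR-23 was lower in the mimic library and miR-486b-5p was level. miR-1a-3p on Tnnc2 had 3.30 and 2.87 reads.

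**Figure D3:**
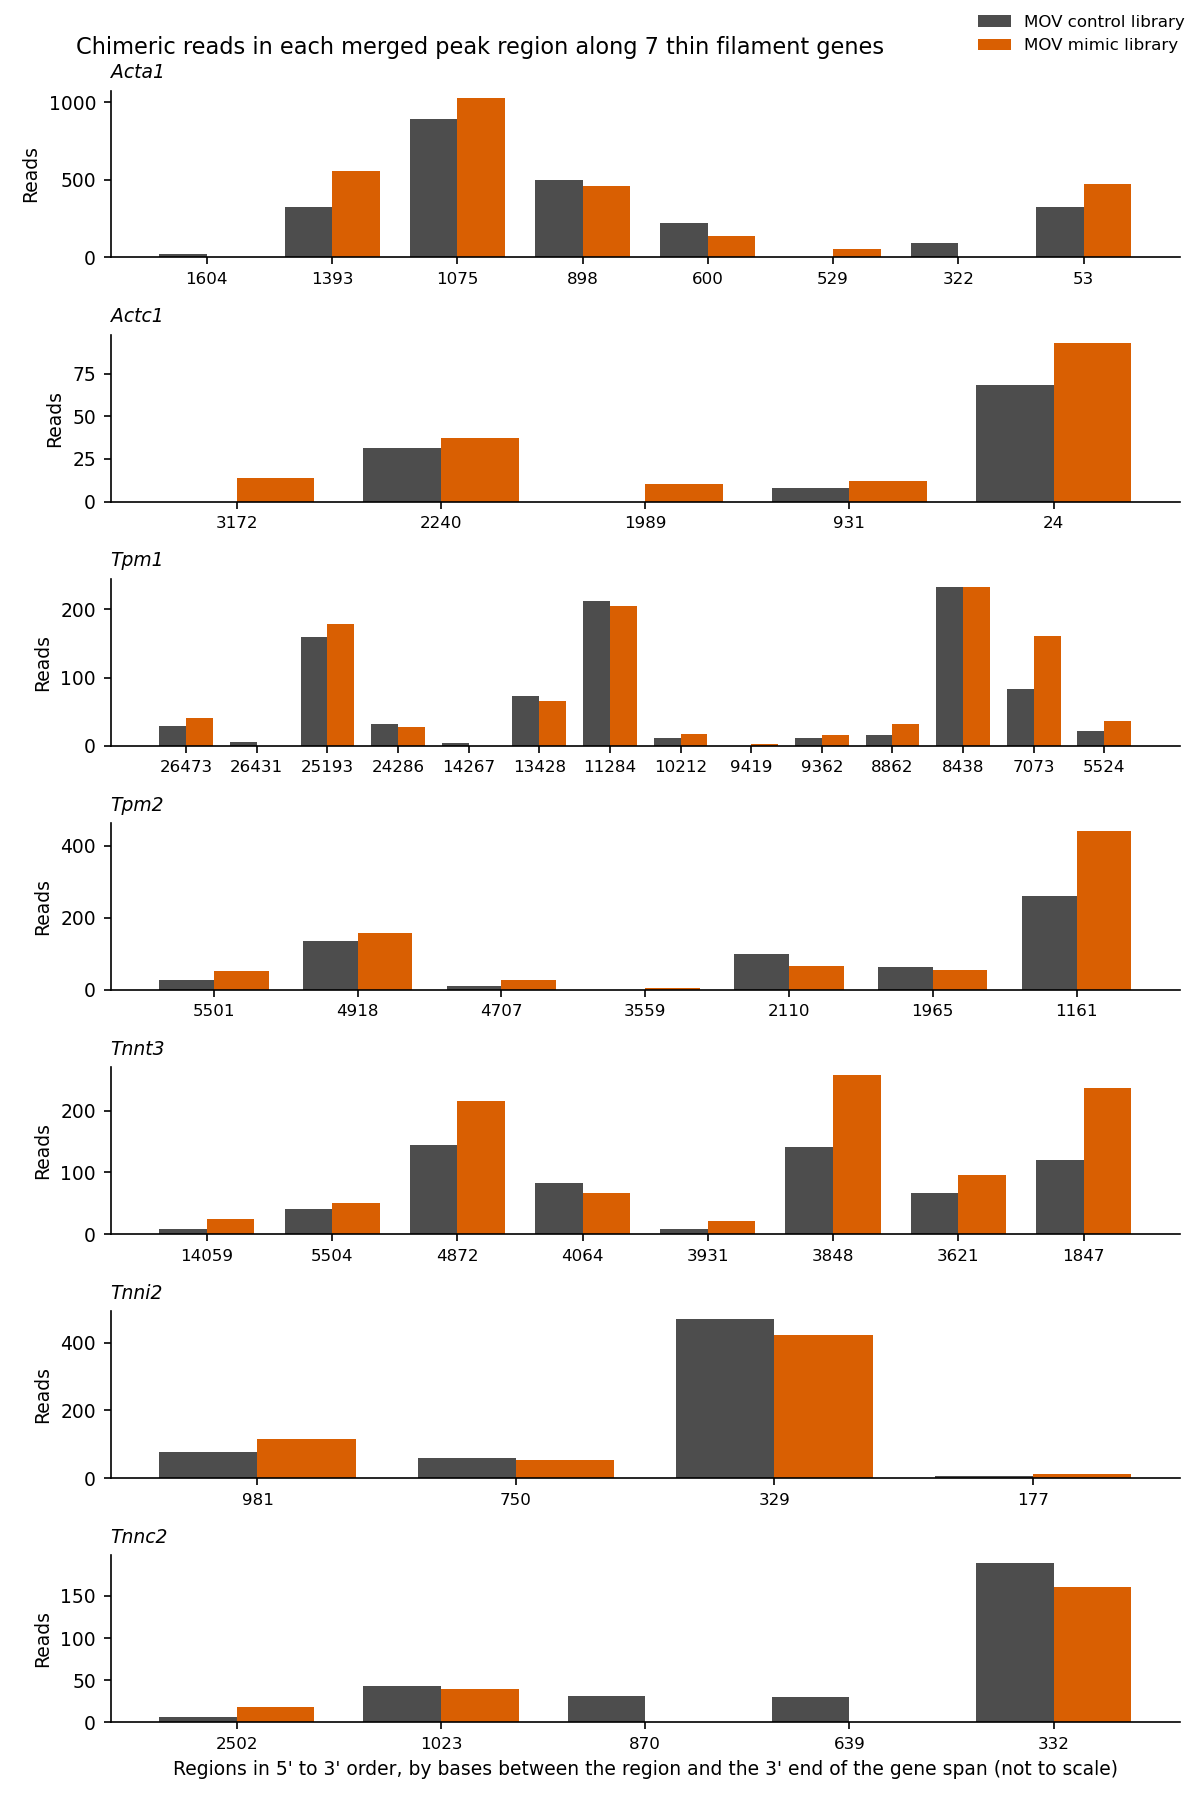
Chimeric reads of each merged peak region in 5′ to 3′ order along the 7 genes with over 100 reads, each labelled with its distance in bases from the 3′ end of the gene span, for the MOV control library (grey) and the MOV mimic library (orange). The last region is the highest of Actc1, Tpm2 and Tnnc2, the reads of Tpm1 and Tnnt3 are spread over many regions, and the 2 Tnnc2 regions at 870 and 639 bases have bars in the control library only.

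Over the 9 genes, miR-133a-3p was the leading miRNA in both libraries. It had 1621 control and 1918 mimic reads, 29.4% (28.2 to 30.6) and 29.5% (28.4 to 30.6) of the members' reads, against 20.6% and 22.6% of the reads on other nuclear genes. miR-133b-3p had 383.0 and 554.1, a ratio of 1.45 (1.27 to 1.65), where its reads over the whole library had a ratio of 1.06. With miR-133b-3p the excess lay on Acta1 (82.8 and 164.0 reads) and Tnnt3, while on Tpm1 it had 132.2 and 130.1. miR-378a-3p had 167.4 and 238.6 reads, a ratio of 1.42 (1.17 to 1.75) against 1.31 over the whole library. miR-27a-3p had 230.6 and 182.7, a ratio of 0.79 (0.65 to 0.97) against 1.02. let-7a-5p, let-7d-5p and let-7f-5p had 168.2, 152.6 and 123.3 reads in the control against 180.3, 147.8 and 161.1 in the mimic, mostly on Acta1. Without Acta1 the let-7 share of the remaining genes was 3.1% in the control against 2.9% in the mimic.

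miR-1a-3p, the miRNA that the mimic supplies, had 370.1 reads on the 9 genes in the control against 543.1 in the mimic, a ratio of 1.47 (1.28 to 1.68). Its ratio over the whole library was 1.31. Its share of the members' reads was 6.70% (6.06 to 7.40) in the control against 8.35% (7.69 to 9.05) in the mimic, lower than on other nuclear genes (9.42% and 11.01%), and without Tpm2 it was 3.31% and 4.17%. miR-206-3p had 265.0 and 260.3 reads, a ratio of 0.98 (0.82 to 1.17). Genes with at least 10 miR-1a-3p reads numbered 605 in all, and 29.3% of them were at least 1.5-fold higher in the mimic after division by the library totals and 12.9% at least 1.5-fold lower. Of the 5 members among them, Tnnt3 (1.84 after division) and Tnni2 (1.97, from 9.08 and 19.9 reads) were past 1.5-fold higher and none was past it lower. Tpm2 was at 1.32, Tpm1 at 1.13 and Acta1 at 1.02.

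For all miRNAs together, 2702 genes had at least 20 reads over both libraries. After division by the library totals 13.3% of them were at least 1.5-fold higher in the mimic and 17.8% at least 1.5-fold lower. Of the 9 members, 1 was past that fold in each direction, Tpm3 at 1.72 and Tnnc2 at 0.65. In the regions found in both libraries, Tnnc2 was at 0.82, short of that fold, and Tpm3 was at 3.75 from fewer reads than the minimum of 20, so it was not counted there. Tnnt3 at 1.41, Actc1 at 1.38 and Tpm2 at 1.21 stayed below it. The median ratio of the members before division was 1.14, against 1.06 over the 2702 genes, whose 5th and 95th percentiles were 0.50 and 2.23.

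**Figure D4:**
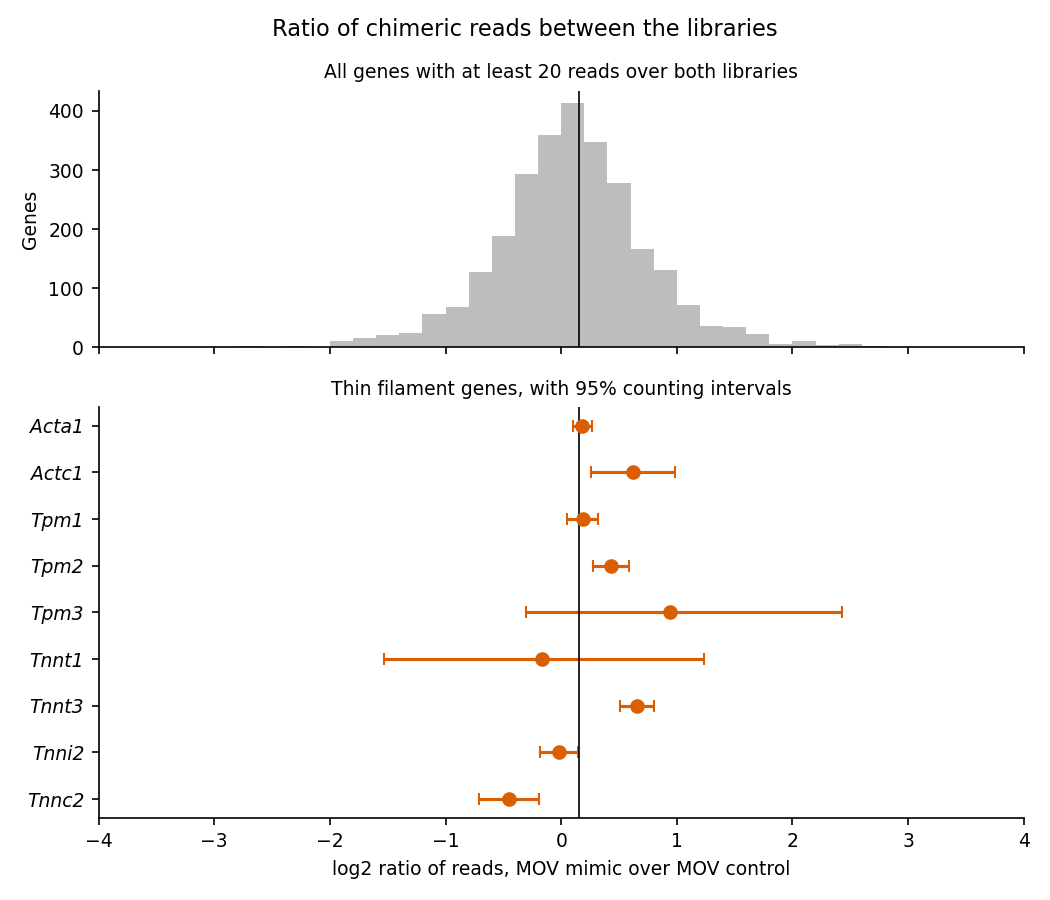
Top, the log2 ratio of MOV mimic to MOV control reads for the genes with at least 20 reads over both libraries, leaving out 1 gene with no reads in the control. Bottom, the same ratio for the 9 thin filament genes with exact 95% counting intervals. The vertical line is the ratio of the library totals. The intervals of Actc1, Tpm2 and Tnnt3 lie above that line, those of Tnni2 and Tnnc2 below it, and the other 4 cross it.

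The 88 sites of the members with at least 10 reads in both libraries had ratios from 0.33 to 5.07. Before division by the library totals, whose ratio was 1.12, 59 were higher in the mimic. That count was not made for other genes. After division by the totals 17 were at least 1.5-fold higher in the mimic and 15 at least 1.5-fold lower. Among 1883 sites of other genes 11.8% were past that fold higher and 13.3% lower. For 16 member sites the counting interval lay above the ratio of the library totals and for 9 below it. The same count was not made for sites of other genes, so these 2 counts have no background. A further 4 sites had at least 10 reads in 1 library and no peak of that miRNA in the other. On Acta1, miR-378a-3p had 30.6 reads and miR-133a-3p 18.4 at chr8:123892080-123892102 in the control only, and miR-133a-3p had 25.03 reads at chr8:123892287-123892297 in the mimic only. On Tnnc2, miR-133a-3p had 17.6 reads at chr2:164778031-164778059 in the control only.

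**Figure D5:**
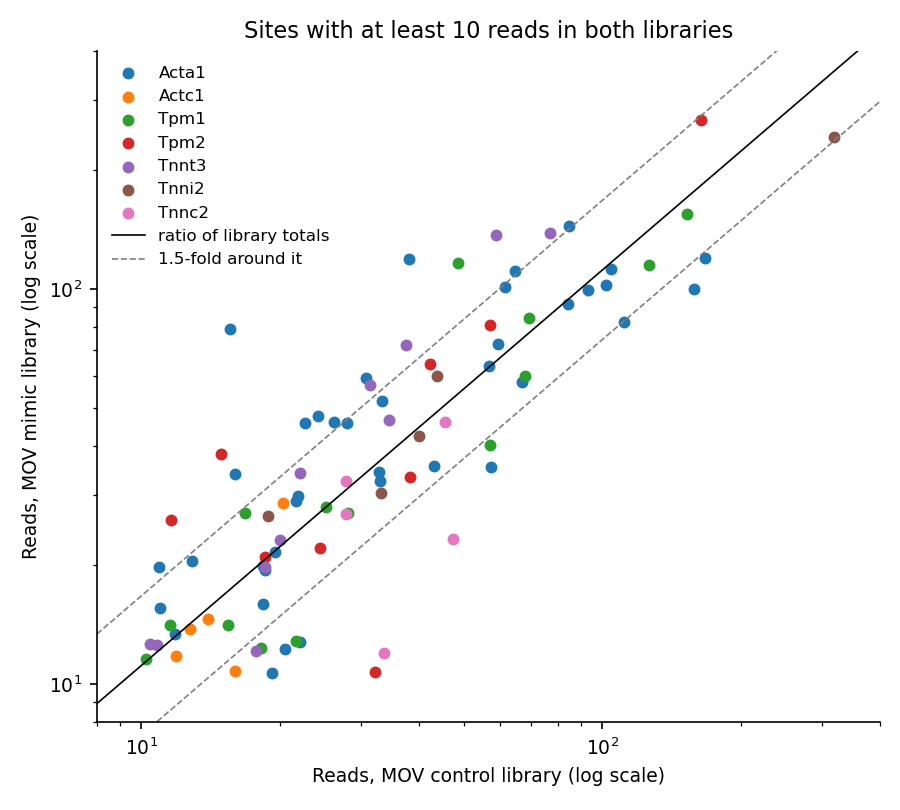
Reads in the MOV control library (horizontal) and the MOV mimic library (vertical), both on log axes, for the 88 sites with at least 10 reads in both, coloured by gene. The solid line is the ratio of the library totals and the dashed lines 1.5-fold around it. Acta1 sites lie on both sides, most Tnnt3 sites lie above the solid line, and the miR-23 sites of Tnnc2 lie below the lower dashed line.

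How often an entry was found again depended on its size. Of the members' 1529 entries in the control, 53.1% (50.6 to 55.6) overlapped an entry of the same miRNA in the mimic library, against 35.2% (34.9 to 35.5) for other genes. Among entries under 1 read the values were 39.6% and 23.0%, and among those of at least 10 reads 97.1% (91.6 to 99.4) and 97.1% (96.3 to 97.7). The strong sites of the thin filament genes and of other genes were found again at rates within counting error of each other.

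The other genes of the thin filament and the thick filament were set beside them. Of 21 other thin filament genes, 15 had reads in both libraries and 14 had at least 20 reads, of which none was past 1.5-fold higher and 1 lower, Lmod3, at 0.63 after division. Their summed reads were 5196 in the control against 5998 in the mimic, a ratio of 1.15, and Neb, the giant ruler protein of the thin filament, held 3280 and 3915 of them. Tpm4, a non-muscle tropomyosin, had 161.3 and 189.0 reads, of which miR-1a-3p and miR-206-3p held 86.8% in the control. The slow and cardiac counterparts of the members were low, with Tnnc1 at 9.13 and 10.5 reads, Tnnt2 at 0 and 0.83 and Tnni3 at 0 in both. Of 10 thick filament genes, 3 were past 1.5-fold higher and none lower, Myh1, Myl2 and Myl3, and their summed reads were 15936 and 20955, a ratio of 1.31. miR-133 held 58.0% of the thick filament reads in the control, against 36.3% on the 9 thin filament genes and 36.2% on the other thin filament genes. Without Acta1, the remaining members were at 48.0% in the control. The thick filament value came mostly from the myosin heavy chains Myh1 (71.1%), Myh2 (70.1%) and Myh4 (51.6%). The light chains Mylpf (12.2%) and Myl1 (14.5%) lay below Tpm1 and Tnni2.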

How the data were processed

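Per the methods, adapters were trimmed by the authors, repeat-derived reads were set aside, the rest was mapped, duplicates were collapsed with the random tag of each read, and CLIPper gave the peaks. The submitters' processing notes name UMI-tools 1.1.1, cutadapt 3.2, STAR 2.7.7a, Bowtie 1.2.3 and HOMER 4.11. The deposited values were estimated counts of chimeric reads, mostly fractions and not scaled to depth, and the origin of the fractions was not given in the sources used here. A miR-1 primer was also used for amplification, per the methods, so shares of miRNAs describe these libraries. The input libraries were not analysed here.

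The methods name mm9, but the members' RefSeq spans of GRCm38.p6 held 5519 control and 6502 mimic reads and their mm9 spans 8.97 and 2.41, so GRCm38 was used, counted from 1. The strand of Tnnt3 and Tnni2 came from GENCODE by name. Exon annotation of GRCm38 was not used here. Peaks of both libraries that overlapped or touched were merged into regions. miRNAs were grouped by name.

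Reads were rounded for intervals, which were exact Poisson for reads, exact conditional binomial for ratios and Clopper-Pearson for shares, at 95%. They cover counting error only. Values came from Python 3.11.15, pandas 2.3.3 and scipy 1.17.1, and the helpers were tested on simulated data. The detection limit was 3 reads.

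The members and lists were chosen with earlier results of these data known. Named were all 9 members, the 3 sites of each with the most reads over both libraries, the 10 leading miRNAs, the leading miRNA of each member, miR-1a-3p, miR-206-3p, miR-133a-3p and miR-133b-3p, the 3 largest differences each way among sites with at least 10 reads in both libraries, and sites with at least 10 reads in 1 library only. Further sites and miRNAs named in the text were chosen after their values were seen.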

Additional observations from a re-analysis of the deposited data

How the results depend on the processing

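No paired analysis was possible because there was a single library on each side, and nothing stands for replicate error. The search for seed matches within peaks was not run, because the genome at hand was not of the peaks' build. Leaving out a gene or region, and counting only regions found in both libraries, were chosen after seeing the data.

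Across 43 alternatives for the comparisons, 20 stayed the same, 23 moved and none turned direction. Only the ratios of mimic to control could turn, because shares, rates of entries found again and counts of members have no direction. For ratios and shares, the same means within the counting interval. The counts of members past a fold have no interval, and those that changed were put with the moved. The ratio of member reads was 1.06 after division by the library totals and 1.05 with totals that left out mitochondrial and 45S reads. The miR-1a-3p ratio was 1.27 with miR-206-3p added. The miR-1a-3p share in the control was 2.62% of entries, 11.5% of reads with miR-206-3p added and 3.31% without Tpm2, and in the mimic 2.69%, 12.4% and 4.17%, or 9.28% with at least 3 reads per entry. Entries of the control found again came to 45.2% with 50% reciprocal overlap, 59.1% with miRNA families pooled, 63.4% from 1 read and 80.7% from 3 reads, and 47.2% counted from the mimic. The members held 2.75% of control and 2.90% of mimic reads outside mitochondrial and 45S RNA. Among members with at least 20 reads, 0 were past 2-fold in either direction. In regions found in both libraries 0 of those with at least 20 reads were past 1.5-fold, a minimum that left out Tpm3, at 3.75 there, and without division by totals 3 members were past 1.5-fold higher and 0 lower. For single genes, 41 of 52 alternatives stayed within the interval and 9 moved. The remaining 2 turned direction, Tnni2 to 1.27 without its largest region and Tnnt1 to 1.33 in regions found in both libraries. Depth leaves Tpm3 and Tnnt1, with fewer than 20 reads in each library, with wide intervals.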
